A study of Homo sapiens with 18 samples.

Results

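The zinc finger genes at the end of the long arm of chromosome 19, in bands 19q13.41 to 19q13.43, form one of the largest runs of such genes in the human genome. A fixed list of 60 of them was looked up by gene symbol among the 27130 symbols of the count tables, and all 60 were found. The list does not hold every zinc finger gene of the bands, since at least 30 further protein-coding ones lie between its members in the RefSeq gene order. Polyadenylated RNA was sequenced from the human embryonic stem cell lines H1 (WA01) and H9 (WA09) and from clones in which the transcription factor gene ZNF263 had been deleted with Cas9, to ask what ZNF263 does in pluripotency. The groups with 3 libraries each were H1 wild type, clone 1-10 of H1 (homozygous knockout), H9 wild type, and clones 9-1 and 9-D of H9 (both homozygous knockout). H1 also had a set of single libraries: wild type, clone 1-5 (heterozygous knockout) and clone 1-10, with 1 library for each. Each knockout group is 1 clone, so an effect of the knockout and a difference carried by the clone cannot be told apart. The labels do not say whether libraries of a group came from separate cultures, and p-values then measure only the spread between these libraries, which may be technical.

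Most genes of this region encode KRAB zinc finger proteins. Such a protein binds DNA through its row of zinc fingers, often at remnants of retroviruses and other mobile elements, and its KRAB domain brings the corepressor TRIM28 (KAP1), which in turn recruits the histone methyltransferase SETDB1. Together they lay down histone H3 lysine 9 methylation and help to keep DNA methylation in early embryonic cells. The zinc finger genes are themselves subject to silencing, and promoters of several members, among them ZNF132, ZNF154, ZNF471, ZNF582, ZNF667, ZNF671 and ZNF677, are known as sites of CpG methylation in tumours. ZNF263 itself is a SCAN and KRAB zinc finger factor and is encoded on another chromosome.

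The promoters of 6 members are printed here because they were among the members with the largest differences and RefSeq gave a promoter for them: ZNF667 and ZNF132 were lost or nearly lost in H9 clones, and ZNF528, ZNF880, ZNF578 and ZNF613 rose in them. Each is the RefSeq GRCh38.p14 sequence in the direction of the gene, from 250 bases before to 50 bases after the annotated start, with CpG dinucleotides in capitals. ZNF667 lies on the minus strand at chr19:56477296-56477595 and ZNF132 on the minus strand at chr19:58440104-58440403. On the plus strand, ZNF528 lies at chr19:52397599-52397898, ZNF880 at chr19:52369673-52369972, ZNF578 at chr19:52453303-52453602 and ZNF613 at chr19:51927222-51927521.
ZNF667: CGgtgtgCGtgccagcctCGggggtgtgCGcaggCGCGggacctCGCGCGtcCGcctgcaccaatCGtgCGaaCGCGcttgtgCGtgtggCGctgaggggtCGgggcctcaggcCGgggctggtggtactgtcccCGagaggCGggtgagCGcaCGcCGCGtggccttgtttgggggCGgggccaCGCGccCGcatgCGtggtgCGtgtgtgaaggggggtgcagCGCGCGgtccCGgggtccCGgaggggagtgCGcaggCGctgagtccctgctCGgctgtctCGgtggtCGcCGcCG
ZNF132: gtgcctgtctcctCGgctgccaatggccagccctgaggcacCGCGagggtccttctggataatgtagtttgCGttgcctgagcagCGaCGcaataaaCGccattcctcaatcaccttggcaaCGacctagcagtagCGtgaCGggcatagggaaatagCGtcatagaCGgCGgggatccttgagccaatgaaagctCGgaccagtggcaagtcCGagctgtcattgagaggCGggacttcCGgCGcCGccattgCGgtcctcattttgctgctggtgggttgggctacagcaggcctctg
ZNF528: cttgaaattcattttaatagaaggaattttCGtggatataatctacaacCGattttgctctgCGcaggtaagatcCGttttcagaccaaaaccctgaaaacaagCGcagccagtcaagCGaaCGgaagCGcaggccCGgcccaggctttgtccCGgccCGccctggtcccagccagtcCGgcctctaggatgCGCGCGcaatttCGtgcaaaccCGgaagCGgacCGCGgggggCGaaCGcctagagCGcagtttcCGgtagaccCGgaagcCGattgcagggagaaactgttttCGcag
ZNF880: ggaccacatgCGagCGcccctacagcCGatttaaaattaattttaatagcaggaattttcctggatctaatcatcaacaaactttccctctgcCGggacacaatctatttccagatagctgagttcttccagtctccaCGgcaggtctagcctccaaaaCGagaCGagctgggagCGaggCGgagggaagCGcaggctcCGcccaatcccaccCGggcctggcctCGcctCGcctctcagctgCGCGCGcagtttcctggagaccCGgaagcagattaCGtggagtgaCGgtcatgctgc
ZNF578: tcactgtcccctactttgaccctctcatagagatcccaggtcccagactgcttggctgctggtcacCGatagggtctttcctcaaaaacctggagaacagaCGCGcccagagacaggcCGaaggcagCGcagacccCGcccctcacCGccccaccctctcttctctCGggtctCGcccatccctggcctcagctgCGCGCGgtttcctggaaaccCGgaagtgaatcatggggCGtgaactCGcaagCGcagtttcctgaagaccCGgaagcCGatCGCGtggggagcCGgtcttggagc
ZNF613: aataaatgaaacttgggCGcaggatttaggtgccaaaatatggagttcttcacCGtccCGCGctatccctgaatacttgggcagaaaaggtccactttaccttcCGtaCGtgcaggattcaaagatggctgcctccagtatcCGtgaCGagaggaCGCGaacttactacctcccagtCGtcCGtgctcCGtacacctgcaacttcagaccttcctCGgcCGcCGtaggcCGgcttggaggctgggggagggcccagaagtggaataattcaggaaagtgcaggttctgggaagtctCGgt

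RefSeq gave such a promoter for 51 of the 60 members. They held a median of 24 CpGs in 300 bases (11 to 42), against a median of 14 over 35116 promoters of the same length. That larger set was not matched to the members for gene type or expression. ZNF667 had the most CpGs of any member, 42, while ZNF132 had 20 and ZNF528 had 27. The promoters of ZNF880, ZNF528 and ZNF578, 3 nearby members that rose in both H9 clones with ZNF534 between the last pair, share the run AGACCCGGAAGC, the longest that all 3 hold. This run was searched for after their values were seen. These 3 hold it by construction. On either strand it also stood in 3 of the other 48 member promoters (6.25%), and, without those 3, in 14 of 35113 promoters in all (0.0399%). The further members with it were ZNF765, which also rose in both H9 clones, and ZNF320 and ZNF816, which did not pass the test in either clone. Likeness in sequence between neighbouring members was not taken into account. The purine-rich words GGGAGGA and GAGGAGG, which overlap each other in sequence and were searched on both strands, stood in 13.7% and 15.7% of member promoters and in 18.1% and 19.3% of all promoters. These matches are a description of letters and not of binding.

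Library totals were 9.66 to 21 M counts, and the limit set for a count of 0, 3 counts, is 0.143 CPM (counts scaled to a library total of 1 M) for the largest total and 0.31 CPM for the smallest. ZNF263 RNA was lower in each knockout group, at log2 fold changes of -0.27 in clone 1-10 and -0.23 in each H9 clone, and most of it remained (adjusted p = 0.0156 in H1, quasi-likelihood F test in edgeR, Benjamini-Hochberg). Which part of the gene was edited is not stated. All 12 pluripotency markers on a fixed list stood at 1 CPM or more in every library of every group, and 0 of them were at 0 anywhere. Their summed level was 7966 to 8054 CPM in H9 wild type, 9146 to 9326 CPM in 9-1 and 9163 to 9279 CPM in 9-D, with 10 of 12 called higher in each clone. In H1 it was 9137 to 9545 CPM in wild type and 9965 to 10150 CPM in 1-10, with 4 of 12 called higher. Of 10 neural markers, the summed level was 262 to 304 CPM in H9 wild type, 408 to 438.4 CPM in 9-1 and 403.4 to 459.7 CPM in 9-D, and in every H9 group 0 of the 10 were at 0 throughout. The sum rests on few genes: 4 of the 10 stood at 1 CPM or more in every library of H9 wild type and 2 in each clone. Of 4 tested, 1 was called higher and 0 lower in each clone, and their median log2 fold changes were -0.39 in 9-1 and -0.35 in 9-D. Of 9 fibroblast and feeder markers tested in H9, 2 were called higher and 5 lower in 9-1, and 2 higher and 3 lower in 9-D. Of 8 endoderm and mesoderm markers tested in H9, 2 were called higher, both at least 2-fold, and 0 lower in each clone. In 1-10, 5 of 8 neural, 5 of 10 fibroblast and feeder, and 4 of 8 endoderm and mesoderm markers tested were called lower. Over all genes tested, 12.8% were called higher and 13.5% lower in 9-1. The shares were 11.5% and 12% in 9-D, and 5.01% and 7.25% in 1-10. The part of the marker shifts in the results on the zinc finger genes was not tested. In such bulk samples, fewer cells with a transcript and less of it per cell cannot be told apart.

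Most of the zinc finger genes were expressed in every group. A gene was called on in a group at 1 CPM or more in every library, off below 0.3 CPM in every library, and low otherwise. By this rule 54 members were on in all 5 replicated groups, where 48% of all genes in the tables were, and 2 members, ZNF534 and ZNF835, were off in all 5, where 32.3% of all genes were. ZNF534 held 1 count in each of 3 libraries and ZNF835 1 count in 1 library, and 0 in the rest of the replicated libraries. In 3 members the state differed, on in 1 group and off in another: ZNF528, ZNF667 and ZNF471. Over all genes in the tables this share was 0.638%. Off members numbered 2 in H1 wild type, 3 in 1-10, 3 in H9 wild type and 4 in each H9 clone.

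**Figure D1:**
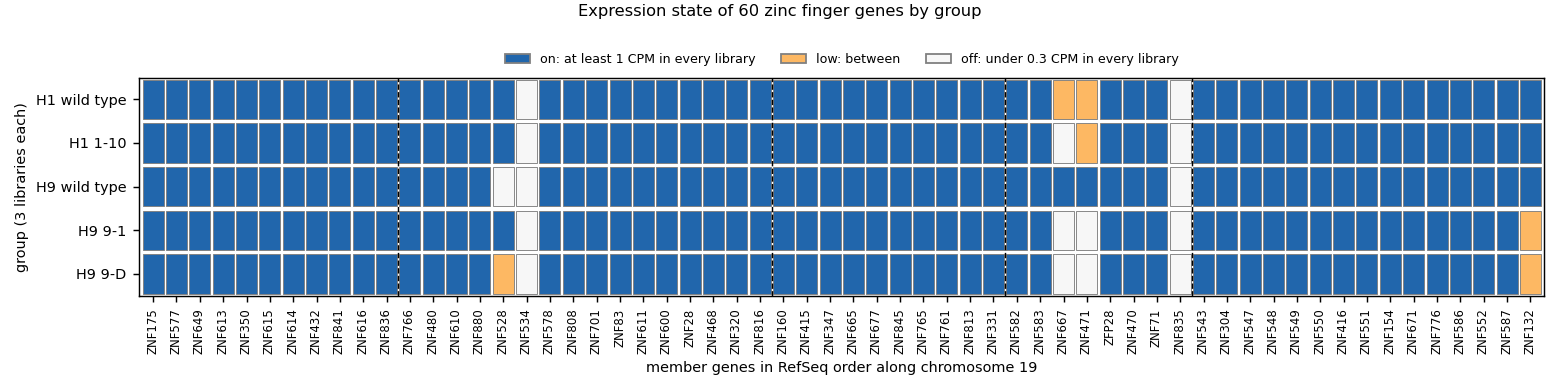
Expression state of the 60 zinc finger genes (columns, in RefSeq gene order) in the 5 replicated groups (rows, 3 libraries each); blue is at least 1 CPM in every library, white is under 0.3 CPM in every library and orange is anything between. Of the 60 columns, 54 are blue throughout, and ZNF667 and ZNF471 are white in both H9 clones.

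ZNF667, known as Mipu1, a KRAB zinc finger gene with a CpG-dense promoter, was silent in every knockout group. In H9 wild type it stood at 8.95, 8.83 and 7.88 CPM, in 9-1 at 0, 0.0476 and 0 CPM, and in 9-D at 0 in all 3 libraries. The groups did not overlap: 385 counts over H9 wild type faced 1 count over 9-1, 416 times as many per library total (exact 95% counting interval 74.3 to 16500), and 0 counts over 9-D, at least 139-fold lower against 3 counts over the group. It was called lower in 9-1 (adjusted p = 1.13e-16 by the quasi-likelihood F test in edgeR, Benjamini-Hochberg). In H1 wild type ZNF667 was low, at 1.38, 0.587 and 0.801 CPM, and 1-10 held 0 counts in all 3 libraries against 37 over wild type, at least 12.9-fold lower. The filter on low counts left it untested in H1; without the filter it was called lower (adjusted p = 7.01e-07, the same edgeR test). The separate H1 libraries held 0.269 CPM in wild type, which was 3 counts, and 0 CPM in 1-5 and 1-10, too few counts for a difference to be detectable.

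The neighbour of ZNF667 on the opposite strand, ZNF667-AS1, went the same way. Its level was 4.41, 3.18 and 4.75 CPM in H9 wild type and 0 in all 6 libraries of 9-1 and 9-D. In H1 wild type it stood at 0.972, 0.848 and 1.09 CPM and in 1-10 at 0 in all 3. It was called lower in each clone (adjusted p = 1.71e-05 in 1-10, 3.34e-12 in 9-1 and 3.18e-12 in 9-D, quasi-likelihood F test in edgeR, Benjamini-Hochberg). Counting is not stated to have used strand, so reads where both genes overlap could belong to either.

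ZNF471, the other member lost in H9, lies next to ZNF667 among the members and was kept in H1. In H9 wild type it stood at 1.6, 1.2 and 2 CPM, in 9-1 at 0 in all 3 libraries, and in 9-D at 0.0555, 0 and 0 CPM. Against 73 counts over H9 wild type, 9-1 held 0, at least 26.3-fold lower, and 9-D held 1, a ratio of 79.3 (counting interval 13.8 to 3170). Both were called lower (adjusted p = 2.13e-08 in 9-1, quasi-likelihood F test in edgeR, Benjamini-Hochberg). In H1 it was low in either group, at 0.648, 0.718 and 0.947 CPM in wild type and 0.695, 1.02 and 0.207 CPM in 1-10, which overlap, with a log2 fold change of -0.09 (SE 0.44).

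ZNF132, at the far end of the list, fell but was not lost. It stood at 4.21, 3.88 and 3.44 CPM in H9 wild type, 0.295, 0.524 and 0.491 CPM in 9-1 and 0.666, 0.561 and 0.778 CPM in 9-D. Every clone library was below every wild-type library, and the ratios of summed counts were 8.51 (counting interval 5.44 to 13.9) and 5.69 (3.91 to 8.53). The log2 fold change was -3.03 in 9-1 (SE 0.303, adjusted p = 5.63e-10, quasi-likelihood F test in edgeR, Benjamini-Hochberg) and -2.45 in 9-D. In H1 the groups overlapped, at 3.24, 3.92 and 4.73 CPM in wild type and 4.04, 2.66 and 4.04 CPM in 1-10 (log2 fold change -0.15, SE 0.211).

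ZNF528 was the member that went the other way in H9. It was off in H9 wild type, at 0.134, 0.283 and 0 CPM, on in 9-1, at 2.21, 2.67 and 2.46 CPM, and between in 9-D, at 1.05, 0.911 and 1.08 CPM. Summed counts were 6, 121 and 50, so that 9-1 was 18.6 times (counting interval 8.32 to 51.8) and 9-D 7.67 times (3.29 to 21.9) the wild-type level. The edgeR test called ZNF528 higher in 9-1 (log2 fold change 4.17, SE 0.456, adjusted p = 4.2e-09) and in 9-D (2.91, SE 0.536, adjusted p = 7.42e-05). The difference between the clones did not pass (-1.25, SE 0.3, adjusted p = 0.0556). H1 wild type had ZNF528 on, at 1.54, 1.3 and 1.46 CPM, and 1-10 stood above it without overlap, at 2.34, 2.21 and 2.38 CPM (log2 fold change 0.72, adjusted p = 0.0808, not called). The separate H1 libraries held less, at 0.718 CPM in wild type, 0.531 CPM in 1-5 and 0.97 CPM in 1-10, all under 1 CPM.

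Its antisense neighbour ZNF528-AS1 rose with it in H9. It held 0.134, 0 and 0 CPM in H9 wild type, 1.25, 1.05 and 1.33 CPM in 9-1 and 0.722, 0.491 and 0.299 CPM in 9-D. It was called higher in both clones (adjusted p = 1.99e-06 and 0.00194, quasi-likelihood F test in edgeR, Benjamini-Hochberg). Here too, reads where it overlaps ZNF528 could belong to either gene.

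**Figure D2:**
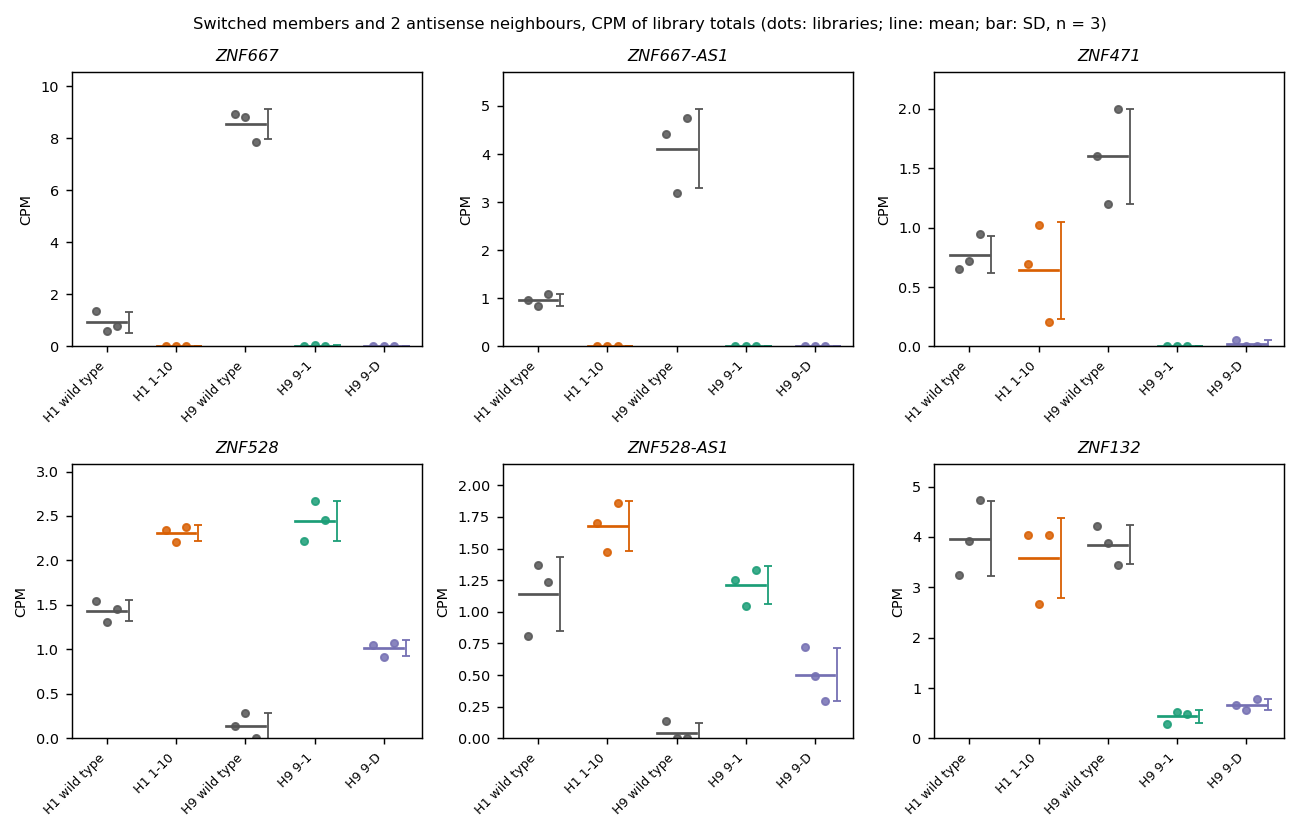
CPM of library totals (vertical axes, each from 0) in the 5 replicated groups for the 4 members with the largest changes and the antisense neighbours of ZNF667 and ZNF528; dots are libraries, lines the means and bars the SD (n = 3). ZNF667 and ZNF667-AS1 sit at or next to 0 in every knockout group, ZNF471 and ZNF132 are lowest in the H9 clones, and ZNF528 is lowest in H9 wild type.

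Beyond these switches, a larger share of the listed zinc finger genes rose in the H9 clones than of all genes. The list was chosen with earlier results of these data known. The difference in shares was not tested and holds for this list only. Within the runs described below, 29 other protein-coding zinc finger genes were tested. Of these, 1 was higher and 5 lower in 9-1, and 2 higher and 3 lower in 9-D. All but ZNF888 and ZNF525 lie in the last run, from ZNF543 to ZNF132. There 0 of 15 members were higher in 9-1 and 1 in 9-D, so these genes also differ from most members in position. ZNF525 was higher in both clones (log2 fold changes 0.45 and 0.47), and ZNF888 was called in neither. In 9-1, 21 of 58 tested members were called higher and 4 lower against H9 wild type by edgeR, with 0.05 as the limit on adjusted p. These are 36.2% and 6.9% of the members tested, where 12.8% and 13.5% of 15411 genes tested were called higher and lower. In 9-D the counts were 22 higher and 4 lower of 58, or 37.9% and 6.9%, against 11.5% and 12% of all genes. Changes of at least 2-fold were called for 8 members in each clone, 5 higher and 3 lower, where 3.21% (9-1) and 2.95% (9-D) of all genes were so called. The members' median log2 fold change was 0.16 in 9-1 and 0.14 in 9-D, and that of all genes was 0.00 and -0.01. Both clones were compared with the same 3 wild-type libraries, so they are not independent of each other. The authors' deposited table for both H9 clones together calls 21 members higher and 4 lower of 58.

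Many of the members called higher stood next to each other in the order of members, though other genes lie between some of them. The members were split, after their values were seen, into 5 runs of neighbours in the RefSeq order, so the counts by run carry no test. In the run from ZNF175 to ZNF836, 11 members next to the PPP2R1A gene, 11 of 11 were called higher in 9-1 (log2 fold changes 0.37 to 1.16, median 0.57). In 9-D 10 of 11 were called higher (0.33 to 1.41, median 0.63), and the remaining one, ZNF175, known as OTK18, was at 0.33 (adjusted p = 0.151, edgeR). Between ZNF175 and ZNF577 lie genes without a zinc finger symbol, of which SPACA6 and HAS1 were tested. SPACA6 was not called (-0.05 in 9-1 and -0.22 in 9-D). HAS1 was not called in 9-1 (0.85) and was called higher in 9-D (1.32, adjusted p = 0.0104, edgeR). The next run, ZNF766 to ZNF816, had 6 higher and 1 lower of 15 tested in 9-1, and 8 higher and 1 lower in 9-D. From ZNF160 to ZNF331, 2 of 10 were higher in each clone and 0 lower. From ZNF582 to ZNF835, 2 were higher and 2 lower of 7 tested in 9-1, and 1 higher and 2 lower in 9-D. In the last run, from ZNF543 to ZNF132, 0 of 15 were higher in 9-1 and 1 in 9-D, while 1 was lower in each.

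**Figure D3:**
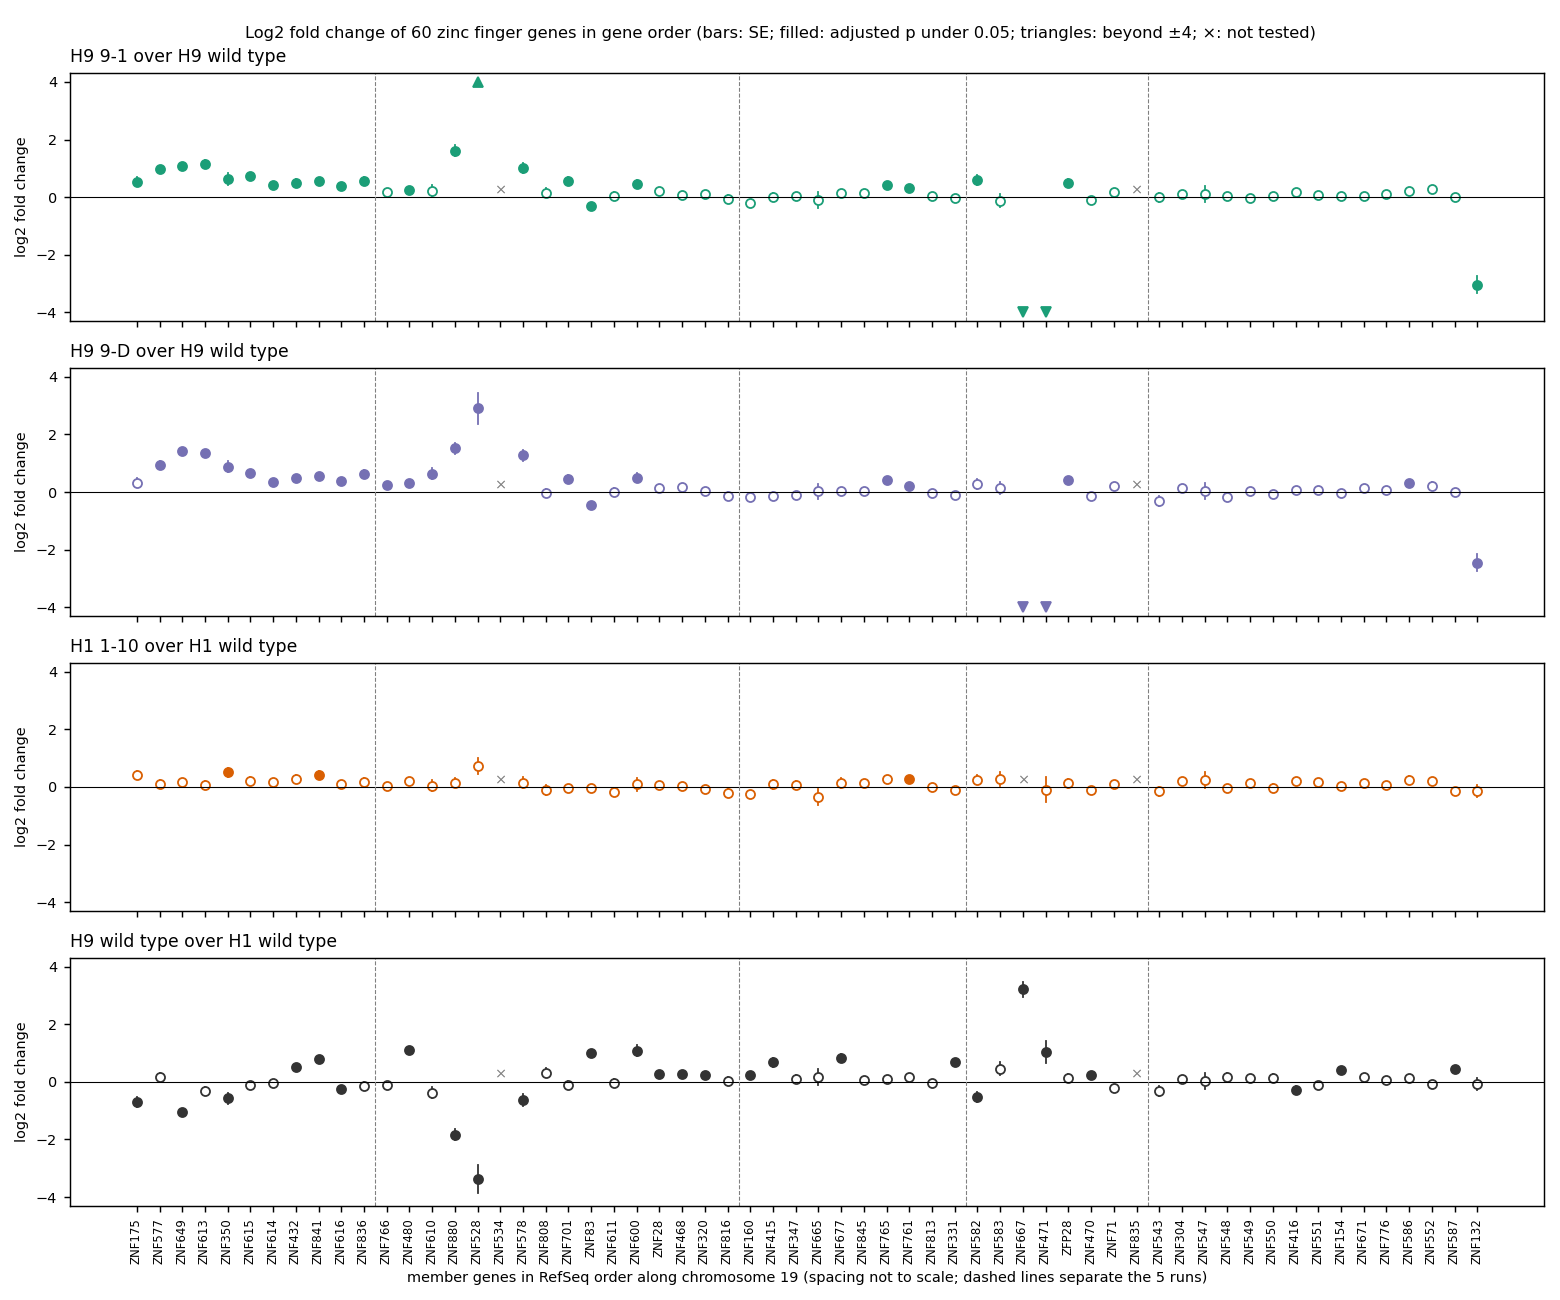
Log2 fold change (vertical axes) of the 60 zinc finger genes in RefSeq gene order (horizontal axis, spacing not to scale, dashed lines between the 5 runs) for 4 comparisons; bars are SE, filled points passed an adjusted p of 0.05 in edgeR, triangles lie beyond 4 log2 units and crosses were not tested. The 11 members at the left end are all above 0 in both H9 clones, from 0.37 to 1.16 in 9-1, while ZNF667, ZNF471 and ZNF132 lie far below 0.

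ZNF649, a KRAB zinc finger gene of the first run, had the smallest adjusted p of the members called higher in 9-1 and in 9-D. It stood at 23.6, 26.6 and 25.7 CPM in H9 wild type, 57.9, 52.9 and 46 CPM in 9-1 and 65.4, 65.7 and 63.2 CPM in 9-D. All clone libraries lay above all wild-type libraries, and 9-D lay above 9-1 without overlap. The log2 fold change was 1.09 in 9-1 (SE 0.08, adjusted p = 2.75e-13) and 1.41 in 9-D (SE 0.0788, adjusted p = 1.25e-16, quasi-likelihood F test in edgeR, Benjamini-Hochberg). In H1 the groups overlapped, at 55.7, 46.4 and 53.4 CPM in wild type and 59.1, 56.4 and 53.4 CPM in 1-10 (log2 fold change 0.16, SE 0.0719). The H9 clones thus reached a range of 46 to 65.7 CPM, and H1 libraries of both replicated groups one of 46.4 to 59.1 CPM. Its antisense neighbour ZNF649-AS1 rose from 0.267, 0.212 and 0.313 CPM in H9 wild type to 0.96, 0.571 and 0.561 CPM in 9-1 and 0.944, 1.12 and 1.55 CPM in 9-D (adjusted p = 0.0384 and 0.000272, edgeR). Reads where it overlaps ZNF649 could likewise belong to either gene.

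ZNF613, 1 position further along, stood at 6.95, 7.35 and 5.63 CPM in H9 wild type, 14.5, 15.8 and 12.6 CPM in 9-1 and 15.8, 16.2 and 16.6 CPM in 9-D. The clones did not overlap with wild type, and the log2 fold changes were 1.16 (SE 0.122) and 1.34 (SE 0.12). ZNF577, beside ZNF649, rose from 10.6, 11.4 and 10.2 CPM to 20.9, 20.5 and 19.9 CPM in 9-1 and 21.5, 22.4 and 16.4 CPM in 9-D, again without overlap (0.96 and 0.95). Smaller rises in this run were those of ZNF615 (0.74 in 9-1 and 0.66 in 9-D), ZNF614 (0.43 and 0.34), ZNF432 (0.51 and 0.47), ZNF841 (0.56 and 0.57), ZNF616 (0.37 and 0.38) and ZNF836 (0.57 and 0.63). ZNF836 shares 13.2% of the 50-base windows of its GENCODE v29 transcripts with other genes, so its reads are uncertain.

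ZNF350, known as ZBRK1, a partner of BRCA1 and a repressor of the damage-response gene GADD45A, also lies in this run. It stood at 2, 3.74 and 3.75 CPM in H9 wild type, 4.87, 5.19 and 4.21 CPM in 9-1 and 5.39, 5.82 and 5.68 CPM in 9-D. H9 wild type library 1 was the lowest, and no clone library lay as low as any wild-type library. The log2 fold changes were 0.63 (SE 0.196) and 0.88 (SE 0.192). Without that library the value in 9-1 fell to 0.38 and the call was lost (adjusted p = 0.164), as it was without 9-1 replicate 2 (adjusted p = 0.0778, edgeR). ZNF175 in 9-1, at 8.12, 6.52 and 5.68 CPM over 5.14, 4.45 and 4.75 CPM in wild type (log2 fold change 0.53), lost its call without 9-1 replicate 1 (adjusted p = 0.0921, edgeR).

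**Figure D4:**
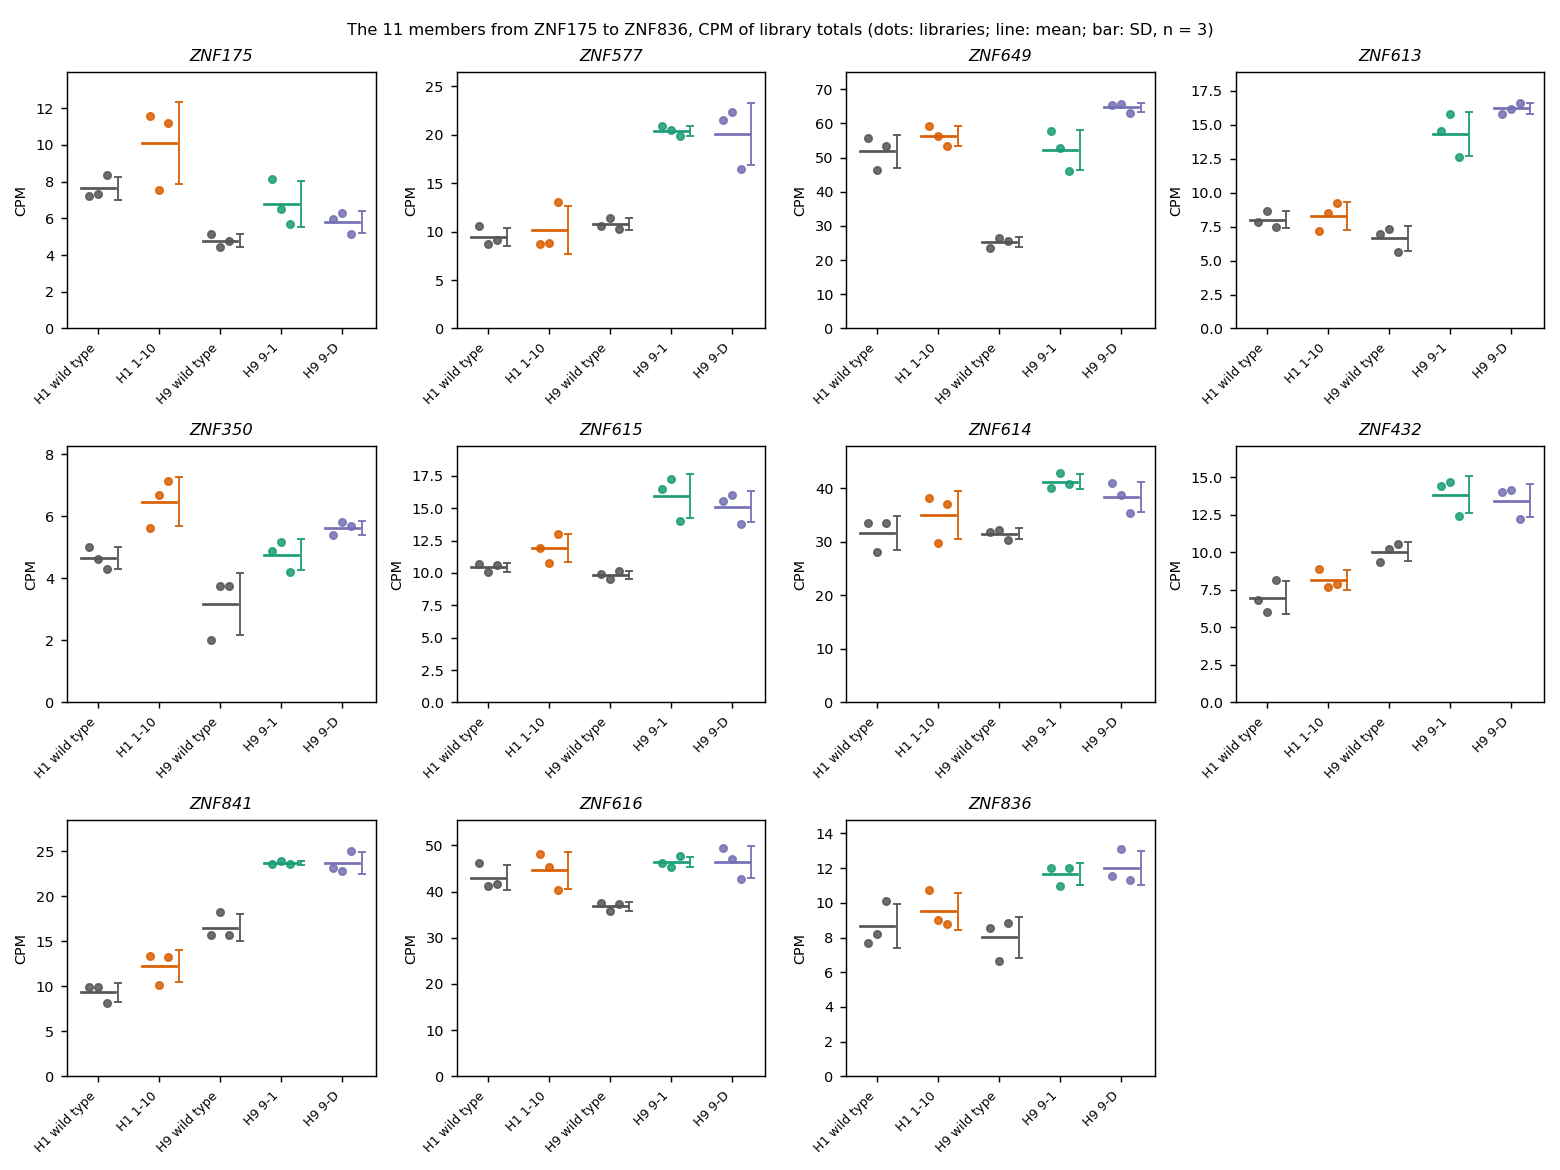
CPM of library totals (vertical axes, each from 0) for the 11 members from ZNF175 to ZNF836 in the 5 replicated groups; dots are libraries, lines the means and bars the SD (n = 3). In ZNF649, ZNF613 and ZNF577 all 6 libraries of the H9 clones lie above all 3 of H9 wild type, and in ZNF649 the H9 wild-type libraries, at 23.6 to 26.6 CPM, lie below every H1 library.

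In the run from ZNF766 to ZNF816, ZNF880 rose most after its neighbour ZNF528. It stood at 1.74, 2.54 and 2.13 CPM in H9 wild type, 6.35, 6.04 and 6.67 CPM in 9-1 and 6.22, 5.68 and 5.68 CPM in 9-D. The clones were separate from wild type and overlapped with each other, at log2 fold changes of 1.61 (SE 0.184) and 1.51 (SE 0.186). H1 held ZNF880 at 8.51, 5.81 and 8.16 CPM in wild type and 8.15, 8.77 and 6.73 CPM in 1-10, which overlap. ZNF578 rose from 2.54, 3.11 and 2.63 CPM to 4.43, 5.28 and 6.46 CPM in 9-1 and 6.88, 6.17 and 6.16 CPM in 9-D, without overlap with wild type (log2 fold changes 1.01 and 1.27).

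Others of this run moved less. ZNF701 rose by log2 fold changes of 0.57 and 0.46, but shares 14.2% of its transcript windows with other genes, most with ZNF808. ZNF480 rose by 0.26 and 0.31; the 9-1 call of ZNF480 was lost without H9 wild type replicate 2 (adjusted p = 0.0865) or 9-1 replicate 2 (adjusted p = 0.0926, edgeR). ZNF600, at 0.46 and 0.50, lost its call in 9-1 without any of 4 libraries and in 9-D without any of 3, with adjusted p up to 0.124 in 9-1 and 0.078 in 9-D in edgeR. ZNF600 also shares 10% of its transcript windows with other genes, most with ZNF611. ZNF610 (0.64) and ZNF766 (0.24) were called in 9-D; in 9-1 they had 0.21 and 0.18 and were not called. ZNF808, which silences MER11 elements and whose loss causes failure of the pancreas to form, had log2 fold changes of 0.16 and -0.03 and was not called, and ZNF611, which binds SVA elements, had 0.05 and 0.01. ZNF808 shares 22.3% of its transcript windows with other genes.

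ZNF83 was the 1 member of this run that fell. It stood at 22.9, 22 and 21.1 CPM in H9 wild type, 16.8, 18.1 and 17.3 CPM in 9-1 and 16.4, 16.5 and 13.6 CPM in 9-D, with no overlap. The log2 fold change was -0.29 in 9-1 (SE 0.0941, adjusted p = 0.0176) and -0.45 in 9-D (SE 0.0953, adjusted p = 0.000459, quasi-likelihood F test in edgeR, Benjamini-Hochberg). The call in 9-1 was lost without H9 wild type replicate 1 (adjusted p = 0.0611), 9-1 replicate 1 (0.0738) or 9-1 replicate 3 (0.0556).

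From ZNF160 onward there were further calls besides those of ZNF667, ZNF471 and ZNF132. ZNF765 (0.44 and 0.43) and ZNF761 (0.31 and 0.21) were higher in both clones, ZNF761 in 9-D with a call lost without any of 3 libraries (adjusted p up to 0.153, edgeR). ZFP28, which encodes a zinc finger protein with a pair of KRAB domains, rose in both (0.49 and 0.40) and lies next to ZNF471. ZNF582 was higher in 9-1 (0.60) and had 0.28 in 9-D, not called, and ZNF586 was higher in 9-D (0.30, adjusted p = 0.0413) and had 0.21 in 9-1, not called. ZNF304, which recruits corepressors to silence tumour suppressor loci, had log2 fold changes of 0.10 and 0.16, ZNF154 had 0.04 and -0.04, and ZNF671 had 0.03 and 0.13, all without a call.

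The members with the largest summed CPM, a rank that also grows with transcript length, did not pass in the knockout comparisons except ZNF480. ZNF331, an imprinted KRAB gene, stood at 99.9, 109 and 106 CPM in H9 wild type, 96.6, 101 and 98.7 CPM in 9-1 and 92.6, 96.1 and 96.3 CPM in 9-D. ZNF587, which represses young retroviral elements together with its near copy ZNF417, stood at 66 to 69.6 CPM in H9 wild type and 63.9 to 68.8 CPM over the clones. It shares 18.8% of its transcript windows with other genes, most with ZNF417, so its reads are uncertain. ZNF320 stood at 57.2, 58.7 and 59.7 CPM in H9 wild type, but shares 75.2% of its transcript windows with other genes, most with ZNF468, so its reads are uncertain.

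Few members were called between 9-D and 9-1. Of 58 members tested, 1 was higher in 9-D and 0 lower, where 0.162% and 0.143% of all genes were called. At least 2-fold apart were 0 members and 0.0519% of all genes. At an unadjusted p of 0.05, 2 were higher and 1 lower in edgeR and 1 higher and 1 lower in DESeq2. The share of all genes at that limit was not computed. The called member was ZNF649 (log2 fold change 0.32, SE 0.0728, adjusted p = 0.0365, edgeR). This call was lost without any of 5 of the clone libraries, at adjusted p from 0.0566 (without 9-D replicate 3) to 0.441 (without 9-1 replicate 3).

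In H1, few members moved in clone 1-10. Of 57 tested, 3 were called higher and 0 lower, or 5.26% and 0%, where 5.01% and 7.25% of 14897 genes were called higher and lower, so the share called higher was near that of all genes. At an unadjusted p of 0.05, 10 were higher and 1 lower in edgeR, and 6 higher and 2 lower in DESeq2. The share of all genes at that unadjusted limit was not computed, so these counts cannot be set against it. DESeq2 called 1 member higher, and 577 of 13838 genes in all. Leaving out 1 library gave 0 higher without wild type replicate 3 or 1-10 replicate 3, 1 without 1-10 replicate 1 and 7 without 1-10 replicate 2. In the same order, 284 of 15145, 493 of 15234, 421 of 15050 and 903 of 15062 genes were called higher. The members' median log2 fold change was 0.10, and that of all genes 0.00. In the run from ZNF175 to ZNF836, 2 of 11 were called higher, with log2 fold changes from 0.07 to 0.50 and a median of 0.17. The authors' deposited table calls 1 member higher and 0 lower of 56.

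The 3 called in H1 were ZNF350, ZNF841 and ZNF761. ZNF350 stood at 5.02, 4.63 and 4.3 CPM in wild type and 5.62, 6.68 and 7.14 CPM in 1-10, without overlap (log2 fold change 0.50, SE 0.165, adjusted p = 0.0404). ZNF841 went from 9.96, 9.92 and 8.16 CPM to 13.3, 10.2 and 13.2 CPM, where the lowest clone library lay just above the highest of wild type (0.41, SE 0.13, adjusted p = 0.0349). ZNF761 stood at 41.4, 38.2 and 36.6 CPM in wild type and 50.3, 40.6 and 47.2 CPM in 1-10, which overlap (0.28, SE 0.0793, adjusted p = 0.0166; all by edgeR). Each call was lost without single libraries: that of ZNF350 without any of 5 (adjusted p up to 0.157), those of ZNF841 and ZNF761 without wild type replicate 3, 1-10 replicate 1 or 1-10 replicate 3 (adjusted p up to 0.199 and 0.146). DESeq2 called ZNF761 but not ZNF350 (adjusted p = 0.139) or ZNF841 (adjusted p = 0.102).

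The separate H1 libraries, 1 per genotype and so with no replicate check, showed 0 of 56 members at least 2-fold apart from wild type in 1-5 and 0 of 56 in 1-10, where 0.97% and 0.974% of all genes were. Log2 ratios of CPM with 0.5 CPM added ran from -0.80 (ZNF471) to 0.49 (ZNF583) in 1-5, and from -0.70 (ZNF471) to 0.90 (ZNF610) in 1-10. For ZNF649 the wild-type library gave 44.5 CPM, 1-5 gave 41.3 CPM and 1-10 gave 35.3 CPM. ZNF132 stood at 3.86, 2.28 and 2.69 CPM in the same order.

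The knockout effect was then compared between lines, as the mean of the H9 clones over H9 wild type minus clone 1-10 over H1 wild type. Of 58 members tested, 8 had a higher and 2 a lower effect in H9, or 13.8% and 3.45%, where 5.21% and 4% of 15802 genes did (9.21% in either direction). At least 2-fold apart were 6 members, where 1.96% of all genes were. The higher ones were ZNF528, ZNF880, ZNF613, ZNF649, ZNF578, ZNF577, ZNF701 and ZNF615, of which 4 lie in the run from ZNF175 to ZNF836 and 4 in the next. The lower ones were ZNF471 and ZNF132. In ZNF649 the difference of the log2 effects was 1.08 (SE 0.104, adjusted p = 1.56e-10), and in ZNF132 -2.60 (SE 0.323, adjusted p = 9.55e-08, quasi-likelihood F test in edgeR, Benjamini-Hochberg). That of ZNF578, 1.00, lost its call without H1 wild type replicate 3 (adjusted p = 0.0531). For ZNF667 the difference could not be estimated, since 1-10 and 9-D both held 0 counts.

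Wild-type H9 was also compared with wild-type H1. Of 58 tested, 17 were higher and 9 lower in H9 than in H1, or 29.3% and 15.5%, where 27.1% and 25.6% of 15802 genes were (52.7% in either direction). At least 2-fold apart were 7 members, 4 higher and 3 lower, where 8.02% of all genes were. The labels do not say whether both lines were prepared together, so line and preparation cannot be told apart. This comparison uses the same H9 wild-type libraries as the clones do, and values are given side by side only.

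The members lower in H9 wild type by most were ZNF528 (log2 fold change -3.37, SE 0.488), ZNF880 (-1.83, SE 0.185), ZNF649 (-1.06, SE 0.0812), ZNF175 (-0.70, SE 0.165) and ZNF578 (-0.64, SE 0.202). ZNF528-AS1 was also lower (adjusted p = 3.62e-07, edgeR). The call of ZNF578 was lost without H1 wild type replicate 3 (adjusted p = 0.0819). The log2 fold changes of these 5 against H9 wild type were 4.17, 1.61, 1.09, 0.53 and 1.01 in 9-1 in the same order.

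The members higher in H9 wild type by most were ZNF667 (3.21, SE 0.269), ZNF480 (1.12, SE 0.0882), ZNF600 (1.08, SE 0.188), ZNF471 (1.02, SE 0.385) and ZNF83 (0.99, SE 0.103). Against H9 wild type, both clones had ZNF667, ZNF471 and ZNF83 called lower. ZNF480 and ZNF600 were called higher in both, further from their H1 level. ZNF480 stood at 28.7, 23.8 and 30.3 CPM in H1 wild type and 61.6, 54.7 and 66.3 CPM in H9 wild type, without overlap. ZNF83 stood at 10.7, 11 and 10.9 CPM in H1 and 22.9, 22 and 21.1 CPM in H9. ZNF600 stood at 3.56, 2.81 and 2.69 CPM in H1 and 5.88, 5.44 and 8 CPM in H9. The call of ZNF471 was lost in DESeq2 (adjusted p = 0.134) and without any of 3 libraries, H1 wild type replicate 1 (0.0822) or 2 (0.0741) and H9 wild type replicate 3 (0.129). ZNF331 (0.70), ZNF677 (0.84), ZNF415 (0.67), ZNF587 (0.46) and ZNF154 (0.40) were higher as well.

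Genes that lie around the members were tested in the same fits. Of 30 other protein-coding zinc finger genes within the 5 runs, antisense RNAs, pseudogenes and readthroughs left out, 29 were tested in H9. Of these, 1 was higher and 5 lower in 9-1, and 2 higher and 3 lower in 9-D, with median log2 fold changes of -0.03 and -0.07. All but ZNF888 and ZNF525 lie in the run from ZNF543 to ZNF132, where 0 of 15 members were higher in 9-1 and 1 in 9-D. Of 36 genes directly next to a member, whatever their kind, 22 were tested: 4 were higher and 2 lower in 9-1, and 4 higher and 1 lower in 9-D. Within the 5 runs, 31 genes had no zinc finger symbol, and 9 of them were tested in H9. Of these, 1 was higher in 9-1 and 2 in 9-D, and 0 were lower in either. PPP2R1A, a scaffold subunit of protein phosphatase 2A that follows ZNF836, stood at 424, 412 and 420 CPM in H9 wild type, 431, 409 and 425 CPM in 9-1 and 413, 416 and 446 CPM in 9-D, which overlap (log2 fold changes 0.05 and 0.07, not called). These differences between members and neighbours were not tested.

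The corepressor machinery that KRAB zinc finger proteins work through was examined beside them. Of 32 genes on a fixed list of corepressor, heterochromatin and DNA methylation genes, 3 were higher and 4 lower in 9-1, 2 higher and 4 lower in 9-D, and 3 higher and 4 lower in 1-10, all under 2-fold. In either direction these were 21.9% in 9-1, 18.8% in 9-D and 21.9% in 1-10. Of all genes tested, 26.3%, 23.5% and 12.3% were called in the same order. The list's shares were thus below those of all genes in H9 and above in 1-10, differences that were not tested. TRIM28 had log2 fold changes of 0.00 in 1-10 (SE 0.0439), 0.13 in 9-1 and 0.14 in 9-D (SE 0.0542 each) and SETDB1 0.10, -0.07 and -0.06, none called. DNMT3B, a de novo DNA methyltransferase that is also on the pluripotency list, was higher in 1-10 (0.21), 9-1 (0.42) and 9-D (0.41), and CBX5, the heterochromatin protein HP1 alpha, was lower in all 3 (-0.23, -0.22 and -0.36). UHRF1, which guides maintenance methylation, was lower in 9-1 (-0.17) and 9-D (-0.30). TET1, which oxidises methylcytosine, was higher in 9-1 (0.19), had 0.15 in 9-D, not called, and was lower in 1-10 (-0.20). CHD3, a remodeller of the NuRD complex, rose in 1-10 (0.62) and fell in 9-1 (-0.33), and the difference of its effects between lines was -0.86 (SE 0.107, adjusted p = 9.92e-08, edgeR). CBX3 rose in 9-1 (0.22), DAXX rose in 9-D (0.17) and ZNF445, a guardian of imprints, fell in 9-D (-0.27). In H1, SUV39H2 rose (0.22) and FAM208A, the HUSH subunit TASOR, fell (-0.24). In wild type, 20 of the 32 (62.5%) were lower in H9 than in H1 and 1 (3.12%) higher, where 25.6% and 27.1% of all genes were. TRIM28 was at -0.33 there (SE 0.0503, adjusted p = 4.41e-07, edgeR).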

How the data were processed

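The members and gene lists were chosen with earlier results of these data known. The deposited tables hold raw read counts per gene symbol for 18 libraries. The submitters' processing notes name STAR, featureCounts, DESeq2 and the build hg19; versions and options are not given in the sources used here. The authors' deposited comparison tables hold log2 fold changes and adjusted p-values. No batch is stated.

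Counts were tested with edgeR 4.0.16 in R 4.3.3 (TMM scaling, filterByExpr, quasi-likelihood F test, Benjamini-Hochberg adjustment over all genes tested, threshold 0.05), within H1 (6 libraries), within H9 (9) and over all 15 replicated libraries for comparisons between lines. SE is the absolute log2 fold change over the square root of F. The tests were checked on simulated data. CPM values are per library total, are not scaled by transcript length and so do not rank genes. Of the 60 members, 57 in H1 and 58 elsewhere passed the filter. Between replicates, chi-square per gene was 1.83 to 5.94, above counting error. Intervals cover counting error only.

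Named members were those whose state differed, the 5 largest called rises and falls per comparison, and the 4 with the largest summed CPM; other members named were chosen after their values were seen, for position, known role or a call. ZNF263, TRIM28 and SETDB1 were named whatever their values, with up to 3 called corepressor genes per direction. Gene order came from RefSeq GRCh38.p14, which is not the build used for counting. Transcript windows of 50 bases came from GENCODE v29. Alternatives were DESeq2 1.42.0, its size factors in edgeR, no filter, a replicate block and leaving out each library.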

Additional observations from a re-analysis of the deposited data

Results flagged for a closer look

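In 10 members the knockout effect differed between H9 and H1 by the test of the difference itself (the quasi-likelihood F test in edgeR, Benjamini-Hochberg adjusted, over 15 libraries). The log2 effect in H9 minus that in H1 was 2.82 for ZNF528, 1.42 for ZNF880, 1.18 for ZNF613, 1.08 for ZNF649, 1.00 for ZNF578, 0.85 for ZNF577, 0.56 for ZNF701 and 0.49 for ZNF615. It was -2.60 for ZNF132 and -6.59 for ZNF471, the latter a fitted value that depends on the prior count, since 9-1 held 0 counts. All H9 values come from 2 clones compared with 3 wild-type libraries, and all H1 values from 1 clone. No group was large enough for a test of single outlying libraries.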

How the results depend on the processing

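Of 238 counts of members recomputed under other settings, 217 stayed within 1.5 times the reported count and 21 did not. Those 21 all belong to clone 1-10 against H1 wild type or to 9-D against 9-1. For 1-10, the members called higher numbered 3, and 5 with no filter on low counts, 1 in DESeq2 and 0 to 7 when 1 library was left out. Over all genes, 931 of 21743, 577 of 13838 and 284 to 903 were called higher under these settings. Members called lower in 1-10 numbered 0, and 1 with no filter and 0 to 2 when 1 library was left out. Over all genes, 1128 of 21743 and 665 to 1197 were called lower. For 9-D against 9-1, members called higher went from 1 to between 0 and 1 when 1 library was left out. Members called lower went from 0 to 1 with no filter and to between 0 and 1 when 1 library was left out. Over all genes, 12 to 31 were higher and 11 to 24 lower when 1 library was left out, and 27 of 22379 lower with no filter. Same-numbered libraries deviated together little, at correlations of -0.0268 to 0.0796. In H1 these were 0.0278, 0.0796 and 0.0503, and those of unlike numbers ran from -0.0796 to 0.032. The labels do not say whether the numbers pair the samples, and the main fits took them as unpaired. With a replicate block, the members called in 1-10 were 8 higher and 1 lower. Of 14897 genes, 1473 were then higher and 1453 lower, where 747 and 1080 were without the block. In the other comparisons the counts of members stayed within 1.5 times. The 11 and 10 members of the run from ZNF175 to ZNF836 called higher in 9-1 and 9-D stayed between 10 and 11 and at 10 under all settings, a count added after the data were seen. Of 838 values of single members, 794 kept direction and call, 44 lost the call and 0 reversed; the cause was not tested. Depth limits ZNF667 in H1, ZNF471, ZNF528, ZNF534 and ZNF835, which held few counts in some groups.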
